A study of Mus musculus with 12 samples.

Results

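The neutrophil granule genes are 10 genes whose proteins are stored in, or made in large amount by, neutrophils, and they were followed across 12 thymic lymphomas of mice. They were taken by symbol from a table of 37991 Ensembl genes: the early (azurophil) granule genes Elane and Mpo, the late (specific) granule genes Ngp, Camp, Ltf and Lcn2, and the genes of mature cells Mmp9, Retnlg, S100a8 and S100a9. Each of the 10 had 1 row in the table, and all 10 were among the 18612 genes that passed a filter on low counts. The tumours came from C57BL/6 mice of genotype p53neo/R172H;R26CreER/GNZ, in which weekly tamoxifen activated Cre recombinase to bring back wild-type p53, so both groups carried the R172H allele and both received tamoxifen. Of the tumours, 4 were labelled non-responder and 8 responder, by whether imaging showed growth or shrinkage, and each was frozen after the last scan and sequenced as 1 library of 20796860 to 30265753 counts. No tumour without tamoxifen was analysed, and the labels give neither the animals' age nor a batch.

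Neutrophils are short-lived phagocytes that mature in the bone marrow and then circulate. Their granules are filled in sequence: promyelocytes make the proteins of azurophil granules, myelocytes and metamyelocytes those of specific granules, and band and segmented cells those of gelatinase granules, while the calcium-binding proteins S100A8 and S100A9 fill the cytosol. The transcription factors PU.1 and the C/EBP family are known to drive many of these genes. Transcripts of early granule genes are therefore markers of immature marrow cells, whereas blood neutrophils keep those of mature genes such as S100a8.

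In GRCm38 (GENCODE M21), Elane (ENSMUSG00000020125) lies at chr10:79886247-79888215 and Mpo (ENSMUSG00000009350) at chr11:87793581-87804413. Camp (ENSMUSG00000038357, chr9:109847379-109849617), Ngp (ENSMUSG00000032484, chr9:110419747-110423012) and Ltf (ENSMUSG00000032496, chr9:111019271-111042767) are on the same chromosome. Lcn2 (ENSMUSG00000026822) lies at chr2:32384633-32388252 and Mmp9 (ENSMUSG00000017737) at chr2:164940780-164955850. S100a8 (ENSMUSG00000056054, chr3:90668978-90670035) and S100a9 (ENSMUSG00000056071, chr3:90692632-90695721) are neighbours, and Retnlg (ENSMUSG00000022651) is at chr16:48872621-48874496.

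The promoters of 9 of the 10 genes were found in RefSeq (GRCm38.p6), and 6 are shown, a pair for each stage, because the stages are told apart throughout. Each line gives the 250 bases before the transcription start, 5′ to 3′ on the strand of the gene, and capitals mark matches to the C/EBP letters TTNNGNAA on either strand. The regions are chr10:79886062-79886311 (plus strand) for Elane, chr11:87793534-87793783 (plus) for Mpo, chr9:110419558-110419807 (plus) for Ngp, chr9:109849457-109849706 (minus) for Camp, chr3:90668821-90669070 (plus) for S100a8 and chr3:90695722-90695971 (minus) for S100a9.
Elane: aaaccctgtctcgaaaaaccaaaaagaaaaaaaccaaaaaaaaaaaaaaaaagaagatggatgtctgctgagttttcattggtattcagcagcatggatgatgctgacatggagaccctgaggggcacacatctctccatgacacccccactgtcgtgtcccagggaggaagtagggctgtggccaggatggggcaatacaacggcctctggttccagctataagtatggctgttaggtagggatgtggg
Mpo: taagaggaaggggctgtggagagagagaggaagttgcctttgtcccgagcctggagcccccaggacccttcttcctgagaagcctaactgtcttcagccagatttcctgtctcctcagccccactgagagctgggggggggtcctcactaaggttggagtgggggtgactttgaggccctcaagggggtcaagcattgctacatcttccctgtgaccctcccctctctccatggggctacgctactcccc
Ngp: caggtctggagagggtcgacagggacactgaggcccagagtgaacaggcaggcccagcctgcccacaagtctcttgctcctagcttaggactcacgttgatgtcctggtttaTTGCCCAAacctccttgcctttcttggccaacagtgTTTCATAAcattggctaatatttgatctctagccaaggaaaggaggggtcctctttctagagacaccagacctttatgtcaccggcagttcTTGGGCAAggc
Camp: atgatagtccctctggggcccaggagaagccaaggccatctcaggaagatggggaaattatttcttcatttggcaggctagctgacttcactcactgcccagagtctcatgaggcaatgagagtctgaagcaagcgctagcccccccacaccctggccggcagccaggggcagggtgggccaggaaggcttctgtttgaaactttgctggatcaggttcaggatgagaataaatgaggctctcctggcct
S100a8: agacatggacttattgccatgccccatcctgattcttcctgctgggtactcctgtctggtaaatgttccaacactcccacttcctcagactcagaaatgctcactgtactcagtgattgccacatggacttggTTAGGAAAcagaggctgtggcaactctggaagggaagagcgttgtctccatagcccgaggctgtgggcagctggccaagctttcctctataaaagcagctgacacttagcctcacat
S100a9: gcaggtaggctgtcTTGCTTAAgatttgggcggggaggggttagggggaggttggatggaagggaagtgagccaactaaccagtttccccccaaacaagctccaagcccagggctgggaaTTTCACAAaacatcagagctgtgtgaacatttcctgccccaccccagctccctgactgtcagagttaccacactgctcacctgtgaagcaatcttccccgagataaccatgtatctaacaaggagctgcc
In the window of 300 bases, which also takes in the 50 bases after the start, the C/EBP letters were found in 6 of the 9 promoters, against 40.7% of all 32851 promoters in the RefSeq table. Ngp held 3 matches, Ltf and S100a9 held 2 each, and Lcn2, Retnlg and S100a8 held 1 each. Elane, Mpo and Camp held none. The PU.1 letters GAGGAA, searched on both strands, were found in 5 of the 9, against 28.3% of all promoters, with 2 matches each in Mpo and S100a8 and 1 each in Elane, Ltf and Lcn2. A match describes these letters and does not show binding.

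The tumours were T-cell tumours by their markers. The 10 T-cell genes checked, Cd3d, Cd3e, Cd3g, Cd247, Thy1, Lck, Zap70, Cd2, Cd5 and Bcl11b, were detected in every tumour. Their levels summed to 2267 to 2877 CPM in non-responders and 842 to 2614 CPM in responders, where CPM is the count scaled to library size by the TMM method. The granule genes were a small part of each library, with 402 to 885 counts over all 10 in a non-responder and 964 to 22851 in a responder.

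The granule genes were lower on average in non-responders, all 10 of them. Of Elane, Ngp, Camp, Retnlg and Mpo the 4 non-responders together held 0, 14, 18, 20 and 24 counts, close to the lowest that these libraries could count. Fitted log2 fold changes, non-responder minus responder, lay between -2.17 (Ltf) and -6.69 (Ngp) for the 9 genes that had counts in both groups. The median over the 10 was -4.71, beside -0.02 over all genes tested. Setting Elane to its bound given below could not change this median, since its fitted value and its bound both lie below the middle of the 10. With edgeR's quasi-likelihood test no gene was called at an adjusted p under 0.05, whether among the 10 or among all 18612 (0%). Of all genes tested, 51.5% had a log2 fold change below 0. At an unadjusted p under 0.05, 9 of the 10 were lower, against 16.1% of all genes lower, 7.73% higher and 23.8% in either direction. DESeq2 called 8 of the 10 as lower, against 10.4% of all genes lower, 2.8% higher and 13.2% in either direction. Limma-voom called 0 of the 10, with the lowest adjusted p at 0.057, against 4.48% of all genes lower, 4.37% higher and 8.85% in either direction. Elane, with no count in non-responders, passed the filter through its counts in responders and could come out only as lower. Ngp and Camp, with at most 5 and 6 counts in a non-responder, also passed it through responders. The 10 genes were chosen with earlier results of these tumours known, so these counts are a description. In a piece of tumour, fewer neutrophils and less of each transcript per neutrophil cannot be told apart.

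**Figure D1:**
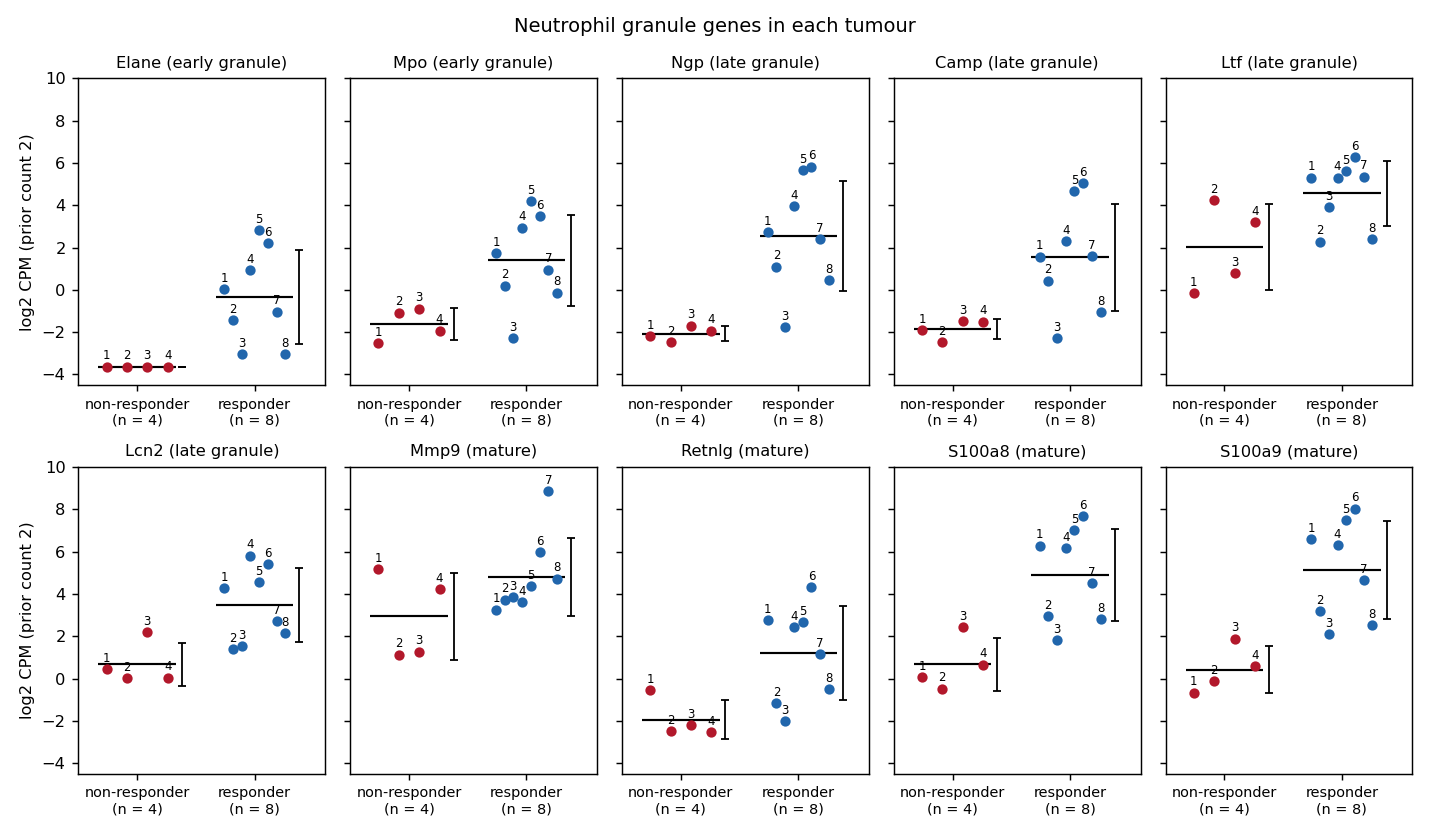
Level of each of the 10 genes in each tumour, as log2 CPM with a prior count of 2; numbers name the tumour, the line is the group mean and the bar beside it the SD (n = 4 non-responders, n = 8 responders). Responders 5 and 6 were at or near the top for most genes, responder 3 lay near the non-responders, and Mmp9 had its highest point in responder 7.

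Elane, which encodes neutrophil elastase, a serine protease of azurophil granules, had no count in any of the 4 non-responders. In responders it ranged from 0.0397 to 7.0 CPM with a median of 0.676 CPM, and responders 3 and 8 had a single count each. All 8 responders thus lay above all 4 non-responders, but responders 3 and 8 by 1 count only. A count of 0 over the 4 libraries allows up to 0.0349 CPM (3 counts over the group, for counting error only), so the mean of non-responders was at least 54.1-fold lower than the 1.89 ± 2.56 CPM of responders (SD, n = 8). Without responder 5, a choice made after seeing the data, the responders' mean was 1.16 CPM and the bound 33.2-fold. The edgeR adjusted p over all tumours was 0.117.

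Mpo, which encodes myeloperoxidase, the enzyme that makes hypochlorous acid in the phagosome, was at 0.0918, 0.392, 0.460 and 0.182 CPM in non-responders 1 to 4. The responders spanned 0.127 to 18.3 CPM with a median of 2.55 CPM. Responder 3, at 3 counts, lay inside the range of the non-responders, and the other 7 lay above it. Its log2 fold change was -4.28 (SE 1.22, edgeR adjusted p = 0.117). Mpo overlaps a predicted gene on the opposite strand, Gm11505, and whether the counting used strand is not given in the sources used here.

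The same 2 tumours stood highest for both early genes. Elane was at 7.0 CPM in responder 5 and 4.56 CPM in responder 6, and Mpo at 18.3 and 11.3 CPM in those tumours. Of the 5 other early genes checked, 3 are further granule or promyelocyte genes. Prtn3, which encodes proteinase 3, averaged 0.241 ± 0.158 CPM in non-responders and 3.5 ± 3.42 CPM in responders (SD, n = 4 and 8; log2 fold change -3.83, SE 1.10, edgeR adjusted p = 0.117). Ctsg, which encodes cathepsin G, had a log2 fold change of -5.32 (SE 1.62), and Ms4a3, a membrane protein gene of granulocyte-monocyte progenitors, one of -5.62 (SE 1.69). The remaining 2 encode transcription factors that other cells express as well. Cebpa was lower at 13.8 ± 3.41 CPM in non-responders, against 34.9 ± 29.1 CPM in responders, and Gfi1, which is also active in developing T cells, was higher at 90.4 ± 21.3 CPM, against 42.1 ± 23.7 CPM (log2 fold change 1.10, SE 0.40, edgeR adjusted p = 0.136).

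Ngp, which encodes neutrophilic granule protein, a relative of the cathelicidins, had the most negative log2 fold change of the 9 genes with counts in both groups. It was at 0.138, 0.0981, 0.230 and 0.182 CPM in non-responders 1 to 4, which are 2 to 5 counts a tumour. In responders it ranged from 0.211 to 56.9 CPM with a median of 5.92 CPM. Responder 3, with 5 counts, lay below the highest non-responder, and the other 7 responders lay above all 4. The log2 fold change was -6.69 (SE 1.58, edgeR adjusted p = 0.117).

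Camp, which encodes the antimicrobial peptide CRAMP, the mouse cathelicidin, was at 0.184, 0.0981, 0.276 and 0.272 CPM in non-responders 1 to 4. Levels in responders ran from 0.127 to 33.4 CPM with a median of 2.92 CPM. The groups overlapped through responder 3 only. Its log2 fold change was -5.39 (SE 1.52, edgeR adjusted p = 0.117), and it was -3.30 when responders 5 and 6 were left out together, a choice made after seeing the data.

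Lcn2, which encodes lipocalin 2, a protein that binds bacterial siderophores and that epithelial cells and macrophages can also make, was at 1.28, 0.932, 4.46 and 0.953 CPM in non-responders 1 to 4. Responders had 2.55 to 56.3 CPM with a median of 12.9 CPM. Non-responder 3 was above responders 2, 3 and 8, so the groups overlapped. For Lcn2 the log2 fold change was -3.37 (SE 1.0, edgeR adjusted p = 0.117). Its highest level was in responder 4 and not, as for Ngp and Camp, in responder 6.

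Ltf, which encodes lactoferrin, an iron-binding protein of specific granules and of many secretions, departed from the other late genes. It was at 0.826, 18.7, 1.66 and 9.08 CPM in non-responders 1 to 4, so that non-responder 2 had 382 counts of Ltf beside 2 of Ngp. The responders lay between 4.77 and 78.1 CPM, with a median of 39.6 CPM. The groups overlapped in responders 2, 3 and 8, which lay below non-responder 2. The log2 fold change was -2.17 (SE 0.92, edgeR adjusted p = 0.18).

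The 5 genes most like Ltf, by Pearson correlation of log2 CPM over all genes tested, were Tbx1, Lyve1, Mmrn1, Reln and Ripor3. This list was drawn up after the values of Ltf had been seen, and its genes were picked for a high correlation, so it is a description. Lyve1, the hyaluronan receptor of lymphatic vessels and of some macrophages, had r = 0.94 and Spearman's rho = 0.94 with Ltf over 12 tumours, beside r = 0.74 and rho = 0.72 between Ltf and Ngp. Lyve1 was at 0.872, 18.2, 0.690 and 4.86 CPM in non-responders 1 to 4, highest in non-responder 2 and next in non-responder 4 as for Ltf, and from 0.992 to 118 CPM in responders. Mmrn1, which encodes multimerin 1, a protein of endothelium and platelets, had r = 0.94 and rho = 0.92 with Ltf. What part such cells had in the Ltf counts was not tested.

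**Figure D2:**
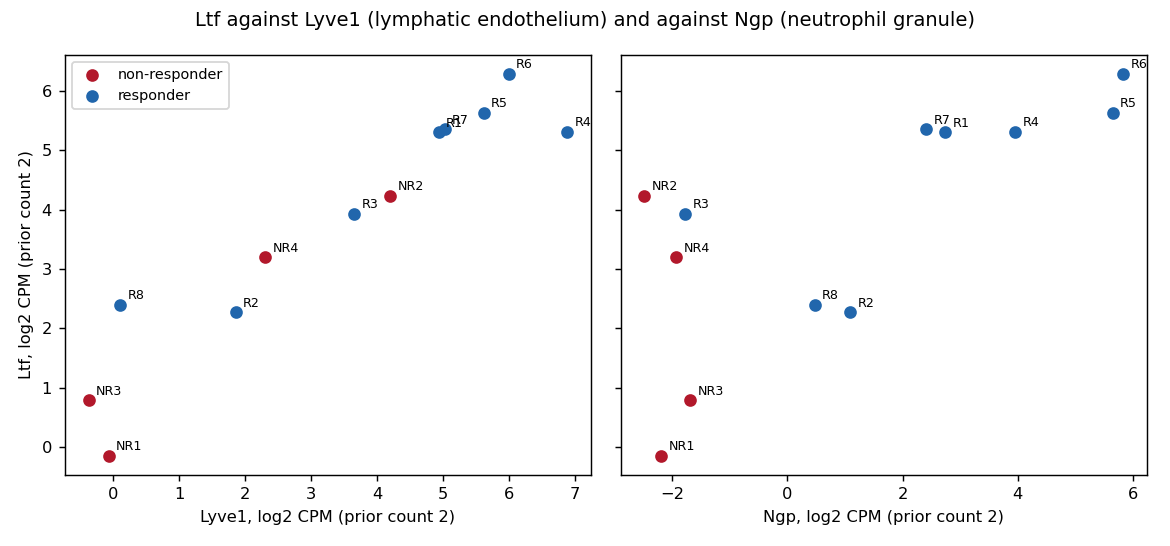
Ltf (log2 CPM, vertical axis) against Lyve1 (left) and against Ngp (right) in 12 tumours, non-responders in red and responders in blue. Non-responders 2 and 4 lie with the other tumours in the left panel, and in the right panel they have low Ngp beside Ltf at 18.7 and 9.08 CPM.

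S100a8 and S100a9, which encode the 2 chains of calprotectin, had the highest median CPM of the 10 in responders. S100a8 was at 0.964, 0.637, 5.29 and 1.498 CPM in non-responders 1 to 4, and from 3.46 to 204 CPM in responders with a median of 47.2 CPM. The groups overlapped, since responder 3 lay below non-responder 3. For S100a8 the log2 fold change was -4.96 (SE 1.27, edgeR adjusted p = 0.117).

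S100a9 was at 0.551, 0.834, 3.63 and 1.41 CPM in non-responders 1 to 4, and from 4.22 to 263 CPM in responders with a median of 52.6 CPM. The groups did not overlap, by a narrow margin between non-responder 3 and responder 3. The log2 fold change was -5.68 (SE 1.36, edgeR adjusted p = 0.117). Groups without overlap and lower in non-responders were found for 2 of the 10 genes, S100a9 and Elane, and for 1.18% of all genes tested, beside 0.951% without overlap and higher. Elane, with no count in non-responders, could not have come out higher.

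Retnlg, a resistin-like gene of mature mouse neutrophils, was at 0.596, 0.0981, 0.138 and 0.0908 CPM in non-responders 1 to 4. In responders it ranged from 0.169 to 20.1 CPM with a median of 3.73 CPM. Non-responder 1, with 13 counts, was above responders 2 and 3. Its fold change was -4.47 on the log2 scale (SE 1.32, edgeR adjusted p = 0.117).

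Mmp9, which encodes gelatinase B, a matrix protease of gelatinase granules that tumour cells and macrophages can also make, did not follow the other 9. It was at 36.0, 2.11, 2.35 and 18.8 CPM in non-responders 1 to 4. In responders it ranged from 9.54 to 467 CPM with a median of 17.3 CPM, and 6 of the 8 lay within the range of the non-responders. Responder 7 alone held 12542 of the 16863 counts in responders. The log2 fold change was -2.40 (SE 1.31, edgeR adjusted p = 0.277), and it was -0.63 (edgeR adjusted p = 0.668) without responder 7. DESeq2 replaced the count of responder 7 as an outlier and gave -0.56, with no adjusted p. In responder 7, S100a9 was at 25.4 CPM and Ngp at 5.25 CPM, both below their means in responders (82.9 and 17.2 CPM).

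**Figure D3:**
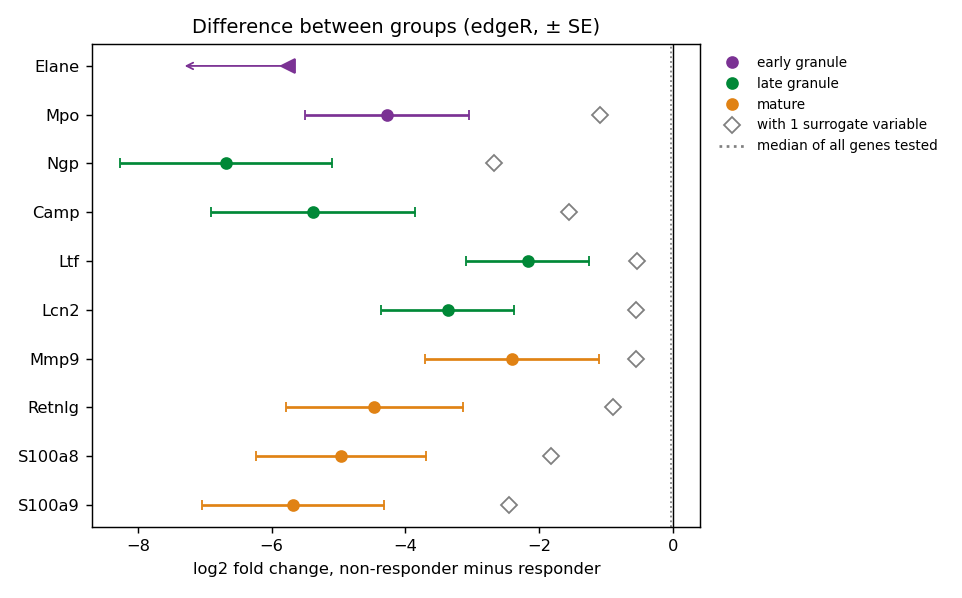
Log2 fold change of each gene, non-responder minus responder, with its SE (edgeR, n = 4 and 8), coloured by stage; diamonds give the value with 1 surrogate variable in the model, and the triangle with an arrow gives the bound for Elane, which had no count in non-responders. All points lie below 0, and the diamonds lie nearer to 0 than the circles.

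The differences were smaller with 1 surrogate variable, a covariate estimated from all genes, in the model. Log2 fold changes of the 9 genes with counts in both groups then lay between -0.54 (Ltf) and -2.68 (Ngp), all still below 0, and that of Mpo was -1.09, with edgeR adjusted p from 0.828 to 0.985. Whether the variable holds the response label itself was not tested. With 1 tumour left out, no fold change changed sign, and the values of S100a9 lay between -6.44 and -5.15.

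Compared per kilobase of exon, S100a9 and S100a8 had the highest mean levels in responders, at 159 ± 181 and 94.3 ± 103 CPM per kilobase (SD, n = 8). Mmp9 followed at 22.1 ± 44.7, with a median of 4.90 CPM per kilobase, then Ngp at 14.1 ± 18.8, Camp at 11.8 ± 17.0, Ltf at 9.88 ± 7.21, Retnlg at 8.79 ± 11.1 and Lcn2 at 7.54 ± 7.71 CPM per kilobase. The early genes came last, Elane at 1.92 ± 2.60 and Mpo at 1.62 ± 1.88 CPM per kilobase. The SD between tumours was above the mean for 9 of the genes and below it for Ltf. Within a tumour, S100a9 was above S100a8, Ngp above Camp, and Lcn2 above Elane in 8 of 8 responders. S100a8 was above Mmp9, and Ltf above Retnlg, in 7 of 8. The order of the means was not kept for the other neighbours: Mmp9 was above Ngp, Retnlg above Lcn2 and Elane above Mpo in 4 of 8, and Camp above Ltf in 3 of 8. In non-responders Mmp9 was highest, at 4.18 ± 4.56 CPM per kilobase, followed by S100a9 at 3.08 ± 2.68, S100a8 at 3.02 ± 3.11 and Ltf at 2.20 ± 2.41 CPM per kilobase (SD, n = 4), and the other 6 were below 1.

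The responders spanned a wide range. The ratio of the highest to the lowest responder was 270-fold for Ngp, 264-fold for Camp, 62.3-fold for S100a9 and 16.4-fold for Ltf. Responder 6 had the highest level of 6 of the 10 genes (Ngp, Camp, Ltf, Retnlg, S100a8 and S100a9), responder 5 of 2 (Elane and Mpo), responder 4 of 1 (Lcn2) and responder 7 of 1 (Mmp9). Responders 6 and 7 were above every non-responder for all 10 genes, and responders 1, 4 and 5 for 9 of the 10, with Mmp9 as the exception. Responder 8 was above every non-responder for 7 genes, responder 2 for 6 and responder 3 for 2. Without responders 5 and 6, a choice made after seeing the data, the log2 fold changes were -4.96 for Ngp, -4.54 for S100a9 and -3.12 for Mpo, and edgeR still called none, while Elane no longer passed the filter on low counts.

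**Figure D4:**
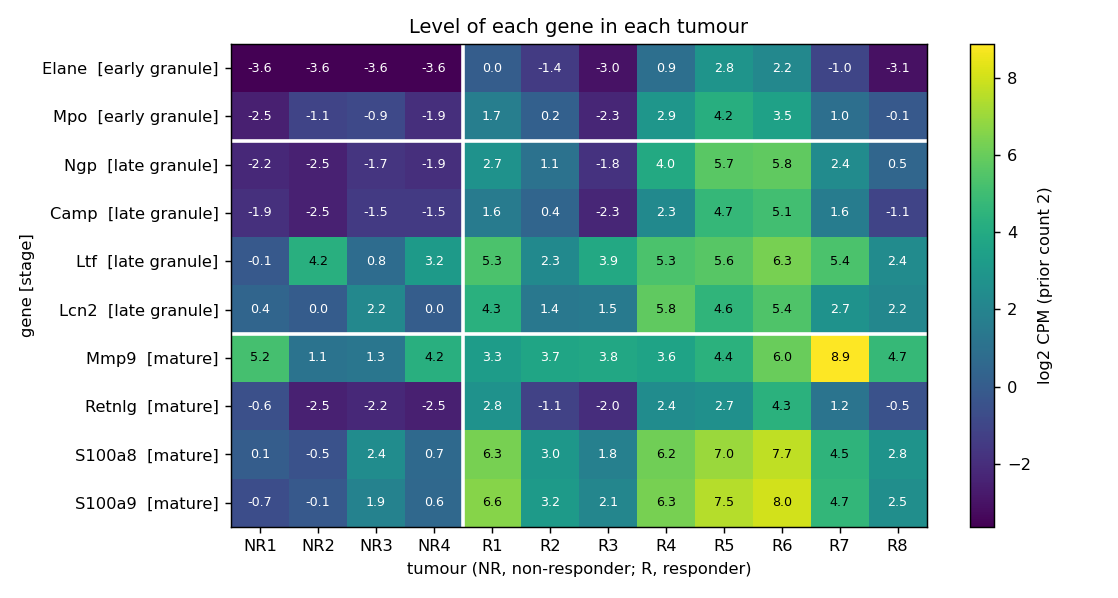
Log2 CPM (prior count 2) of the 10 genes, in rows by stage, in 4 non-responders (NR, left) and 8 responders (R, right). Responders 5 and 6 are bright in all 3 blocks, and the rows of Ltf and Mmp9 differ from the others in non-responders 1, 2 and 4.

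The levels of the thymocyte gene Rag1 did not order the responders in the same way. Rag1, which encodes a subunit of the V(D)J recombinase, was at 895, 1204 and 1262 CPM in responders 1, 2 and 3 and at most 2.91 CPM in responders 4 to 8. S100a9 was at 97.7, 9.13 and 4.22 CPM in the first 3 of these and between 5.71 and 263 CPM in the other 5. In non-responders 1 to 4, Rag1 was at 1498, 168, 1756 and 1264 CPM, and S100a9 at 3.635 CPM or less. Tumours with Rag1 at 2.91 CPM or less were thus all responders, so the response label and the Rag1 level were partly tied. What part this had in the group differences of the granule genes was not tested.

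Within responders, the ratios S100a8 to S100a9 and Camp to Ngp varied by 1.66-fold and 2.05-fold between the lowest and highest tumour, far less than the levels themselves. The count of S100a8 divided by that of S100a9 lay between 0.765 and 1.75 in non-responders and between 0.722 and 1.2 in responders, with medians of 1.26 and 0.833. The ratio in non-responder 1 rested on 21 and 12 counts, with an exact 95% interval of 0.82 to 3.90. Camp divided by Ngp lay between 1.0 and 1.5 in non-responders, from 2 to 6 counts of each gene, and between 0.303 and 0.620 in responders. Over 12 tumours the log2 CPM of S100a8 and S100a9 had r = 0.99 and rho = 0.99, and those of Ngp and Camp r = 0.98 and rho = 0.97.

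**Figure D5:**
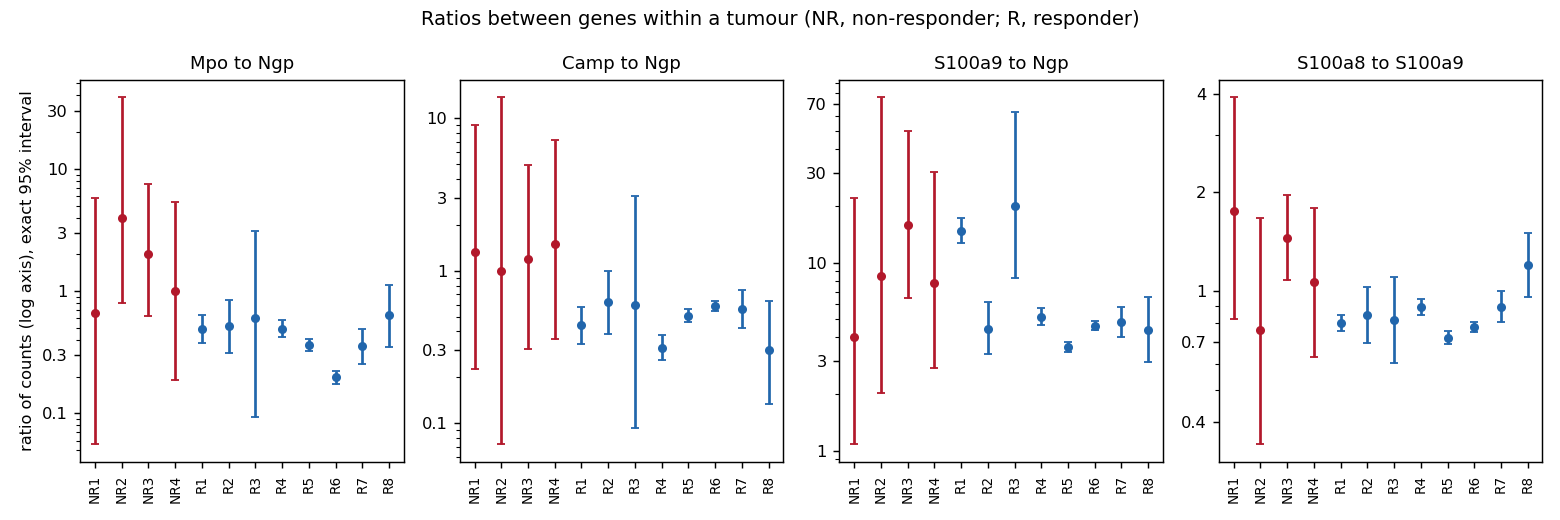
Ratio of counts between pairs of genes in each tumour on a log axis, with the exact (Clopper-Pearson) 95% interval, which covers counting error only; non-responders (NR) are red and responders (R) blue. The intervals of non-responders are wide because the ratios rest on few counts, and responders 1 and 3 stand apart in the third panel.

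Ratios between genes of different stages differed among responders, and so did other ratios within a stage. From the lowest to the highest responder, Mpo to Ngp varied by 3.21-fold and S100a9 to Ngp by 5.64-fold. Within a stage, Elane to Mpo varied by 8.50-fold, Ltf to Ngp by 73.0-fold and Mmp9 to S100a9 by 189-fold. The size of the variation thus did not follow stage. Mpo divided by Ngp, an early over a late gene, was at 0.198 in responder 6 (exact 95% interval 0.175 to 0.223) and at 0.364 in responder 5 (0.326 to 0.406), although the level of Ngp was alike in both, at 56.9 and 50.2 CPM. The other 6 responders lay between 0.355 and 0.636, and the 4 non-responders between 0.667 and 4.00, on 2 to 10 counts of Mpo and 2 to 5 of Ngp. S100a9 divided by Ngp, a mature over a late gene, was at 14.8 in responder 1 (exact 95% interval 12.7 to 17.4), while 6 others, responders 2 and 4 to 8, lay between 3.55 and 5.17. Responder 3 was at 20.0, on 5 counts of Ngp (8.29 to 62.9), and non-responders lay between 4.00 and 15.8. These intervals cover counting error within 1 library each. Whether cells other than neutrophils added to these counts was not tested.

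By the correlation of log2 CPM over 12 tumours with the mean of the 8 late and mature genes (the gene itself left out), Ngp, S100a9 and S100a8 were closest, at r = 0.98, 0.97 and 0.97. The early gene Elane (r = 0.961) and the late gene Camp (r = 0.956) came next, followed by Mpo (0.94), Retnlg (0.94) and Lcn2 (0.91). Ltf was at r = 0.73 and Mmp9 at r = 0.37. The 10 genes outside the list that were most like this mean were Itgb2l, Ifitm6, Trem3, Fabp7, Prtn3, Ctsg, Ms4a3, Fam213a, Zfp366 and Gp9, with r from 0.94 to 0.97. Itgb2l, a β2-like integrin gene of neutrophils, was at 0.0228 ± 0.0264 CPM in non-responders and 1.6 ± 2.12 CPM in responders, and Ifitm6, an interferon-induced transmembrane gene of myeloid cells, at 0.473 ± 0.263 and 4.55 ± 4.35 CPM (SD, n = 4 and 8). The 5 most like the mean of Elane and Mpo were Ms4a3, Ctsg, Trem3, Car2 and Itgb2l, with r from 0.95 to 0.97. Both lists were picked for a high correlation over the 2 groups together, so the levels of their genes by group are a description. Ranking by Spearman's rho gave a list of 10 that shared 1 gene with the first and a list of 5 that shared 2 with the second.

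Of 23 further late and mature neutrophil genes, 20 passed the filter, and 19 of these were lower on average in non-responders. None was called by edgeR, and 14 of the 20 were lower at an unadjusted p under 0.05, against 16.1% of all genes. DESeq2 called 12 as lower, against 10.4% of all genes, and limma-voom 5, against 4.48%. Chil3, which encodes a chitinase-like protein that macrophages also make, averaged 9.12 ± 10.3 CPM in non-responders and 127 ± 127 CPM in responders (log2 fold change -3.79, SE 1.195). Mmp8, the neutrophil collagenase gene, differed by -3.87 on the log2 scale (SE 1.21), Il1r2, the decoy receptor of interleukin 1, by -2.56 (SE 0.78) and Asprv1, a protease gene of mature neutrophils and skin, by -3.04 (SE 0.72). Cxcr2, the receptor of neutrophil-attracting chemokines, had a log2 fold change of -1.10 (SE 0.46) and Csf3r, the receptor of granulocyte colony-stimulating factor, one of -0.66 (SE 0.46). Padi4, which encodes an enzyme that citrullinates histones in neutrophils, was the 1 gene on the other side, at 20.4 ± 7.39 CPM in non-responders and 10.01 ± 11.5 CPM in responders (log2 fold change 1.03, SE 0.71). It was highest in responder 3, at 37.3 CPM, a tumour with 5 counts of Ngp. Which cells held the Padi4 counts was not tested.

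Of 12 genes of neutrophil-attracting chemokines and growth factors, 8 passed the filter and all 8 were lower on average in non-responders, where 51.5% of all genes were. Of the 8, 3 were lower at an unadjusted p under 0.05, against 16.1% of all genes. DESeq2 and limma-voom each called 1 of the 8, Ppbp, against 10.4% and 4.48% of all genes, and a call of 1 in 8 is near those shares. Ppbp, a chemokine gene of platelets, averaged 0.127 ± 0.0675 CPM in non-responders and 2.93 ± 3.39 CPM in responders, and the groups did not overlap (edgeR adjusted p = 0.117, log2 fold change -4.47, SE 1.08). It reached 8.36 and 8.23 CPM in responders 4 and 6. Of the other ligands of Cxcr2 that passed the filter, Cxcl1 was at 0.310 ± 0.308 CPM in non-responders and 0.816 ± 0.357 CPM in responders, Cxcl2 at 0.286 ± 0.313 and 1.34 ± 2.32 CPM, and Cxcl5 at 0.390 ± 0.298 and 1.23 ± 1.47 CPM (SD, n = 4 and 8). Cxcl2 and Cxcl5 were highest in responder 1, at 7.05 and 4.71 CPM.

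Genes of several other cell types were also lower on average in non-responders. The 11 measured erythroid genes summed to 15.9 to 366 CPM in non-responders and 142 to 2844 CPM in responders. Of these, 10 of 10 tested were lower on average, where 51.5% of all genes were. The 10 muscle genes summed to 9.68 to 24.4 CPM in non-responders and 17.2 to 574 CPM in responders, the 7 adipocyte genes to 30.6 to 56.2 and 43.2 to 1191 CPM, and the 8 B-cell genes to 17.3 to 81.7 and 26.6 to 477 CPM. The 7 endothelial genes summed to 95.7 to 155 CPM in non-responders and 148 to 586 CPM in responders, the 10 genes of eosinophils, basophils and mast cells to 1.95 to 4.14 and 5.47 to 68.7 CPM, and the 7 platelet genes to 11.1 to 17.0 and 12.3 to 48.4 CPM. Many were lower at an unadjusted p under 0.05 in edgeR, against 16.1% of all genes. These were 9 of 10 erythroid genes tested, 10 of 10 muscle, 6 of 6 adipocyte and 7 of 8 B-cell genes. They also held 5 of 7 endothelial genes, 6 of 7 of eosinophils, basophils and mast cells, and 2 of 4 platelet genes. DESeq2 called 9, 9, 6, 6, 5, 5 and 2 genes of these lists as lower, in that order, against 10.4% of all genes. Such shares were thus not particular to the granule genes. Apart from the platelet gene Gp6, which had no count in non-responders, no gene of these 7 lists was at 0 in every tumour of a group. Their part in the levels of the granule genes was not tested.

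The 14 genes of the monocyte and macrophage list summed to 1135 to 3482 CPM in non-responders and 891 to 3609 CPM in responders, and the median log2 fold change was -0.21. Of the 14, 5 were lower at an unadjusted p under 0.05, against 16.1% of all genes. Lyz2, which encodes the lysozyme of macrophages and neutrophils, was at 968 ± 663 CPM in non-responders and 1094 ± 459 CPM in responders (SD, n = 4 and 8; log2 fold change -0.18, SE 0.43), and the complement gene C1qa at 194 ± 102 and 225 ± 116 CPM (log2 fold change -0.22, SE 0.42). The first of the 5, Ccr2, a chemokine receptor of inflammatory monocytes, was at 14.3 ± 10.99 CPM in non-responders and 230 ± 231 CPM in responders (log2 fold change -4.00). It was at 201 to 711 CPM in responders 4 to 8, which had Rag1 at 2.91 CPM or less, and at 50.7, 16.7 and 9.49 CPM in responders 1 to 3. Its highest level was in responder 8, where S100a9 was at 5.71 CPM. Which cells held the Ccr2 counts was not tested. The others were Ly6c2, a gene of inflammatory monocytes and of some T cells (-3.95), Marco, a scavenger receptor gene (-3.51), Mrc1, the mannose receptor gene (-1.38), and Csf1r, the receptor of macrophage colony-stimulating factor (-1.32). The T-cell list had 9 of 10 genes higher on average in non-responders (median log2 fold change 0.37), where 51.5% of all genes were lower. Of the 10, 1 was higher at an unadjusted p under 0.05, which is near the 7.73% of all genes.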

How the data were processed

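RNA-seq of 12 mouse thymic lymphomas was used, 4 labelled non-responder and 8 responder. The authors deposited raw counts per Ensembl gene in 1 table, and all its values are whole numbers. Libraries (TruSeq mRNA) were read as paired ends, per the labels' protocols, and the counts come from HTSeq, per the submitters' processing notes. Those notes name NCBIM37 while the labels' protocol names mm10; aligner and strand setting: not given in the sources used here. Symbols were matched by Ensembl identifier to GENCODE M21 (32919 of 37991 identifiers), whose GRCm38 exons gave the exon lengths.

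Counts were filtered with filterByExpr, scaled by TMM and tested with edgeR 4.0.16 (R 4.3.3), quasi-likelihood with robust dispersion, group as the sole term, two-sided, with Benjamini-Hochberg adjustment over 18612 genes and a threshold of 0.05. Standard errors were derived from the F statistic. Log2 CPM used a prior count of 2. Library totals were 20796860 to 30265753. The labels call the tumours independent samples, and no pair was a repeat (chi-square per degree of freedom at least 59.6 over 66 pairs). Procedures were tested on simulated data. Alternatives were RLE, upper-quartile and total-count scaling, no filter, 1 CPM in 4 tumours, no robust dispersion, limma-voom 3.58.1 with quality weights, DESeq2 1.42.0, 1 surrogate variable (sva 3.50.0), thinning to the smallest library, and leaving out each tumour. The genes followed and the lists were chosen with earlier results of these data known. Named genes are the 10 granule genes, the genes most correlated with them, and the 3 with the highest mean CPM of each other list, of which those the text needs are given. Genes outside that rule (Mmp8, Il1r2, Asprv1, Cxcr2, Csf3r, Padi4, Cxcl1, Cxcl2, Cxcl5, Ccr2, Ly6c2, Marco, Mrc1, Csf1r, Slc4a1, Tpsb2, Fcnb, Cebpe and those most like Ltf) were named after their values were seen.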

Additional observations from a re-analysis of the deposited data

Results flagged for a closer look

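Within a group, 4 values stood apart from the rest of their group by Dixon's test at the 95% level, among 20 groups of values tested, where chance gives about 1 in 20. Mmp9 in responder 7 was at 467 CPM, against 63.7 CPM in the next responder. Retnlg in responder 6 was at 20.1 CPM, against 6.67 CPM in the next. Retnlg in non-responder 1 was at 0.596 CPM, which is 13 counts, against 0.138 CPM in the next non-responder. Lcn2 in non-responder 3 was at 4.46 CPM, against 1.28 CPM in the next, and S100a8 and S100a9 were also highest among non-responders in that tumour, at 5.29 and 3.63 CPM.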

How the results depend on the processing

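All 10 genes kept a log2 fold change below 0 in each of the 229 values from alternatives, and 8 crossed the threshold, all in DESeq2. DESeq2 called 8 of the 10 genes, 65 genes of the other lists and 2462 of all genes (13.2%). Limma-voom called 0 of the 10, 26 of the other lists and 1647 of all genes (8.85%). The edgeR count over all genes was 0 to 5 with 1 tumour left out. The number with an unadjusted p under 0.05, 4428 in the main test, was 1102 with 1 surrogate variable and 2768 without responders 5 and 6, a choice made after seeing the data. Elane did not pass the filter on low counts without responders 5 and 6 and has no value there. Mean log2 CPM of each stage moved by less than the spread between tumours with a prior count of 0.5 and with total-count scaling. The cause of the difference between tools was not tested. At 2 to 10 counts a tumour, levels of Ngp, Camp, Mpo and Retnlg in most non-responders were near what these depths can count, so differences among non-responders were not detectable there. No paired analysis was possible because the labels give no pairing of the tumours.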

Other observations

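Responders 5 and 6 were the 2 highest tumours for Elane, Mpo, Ngp, Camp, Ltf, S100a8 and S100a9. An erythroid membrane gene had its highest levels there as well. This gene, Slc4a1, which encodes the band 3 anion exchanger of red cells, was at 0.229, 3.24, 0.0920 and 0.318 CPM in non-responders 1 to 4, at 91.4 and 126 CPM in responders 5 and 6, and at no more than 8.31 CPM in the other responders. Haemoglobin transcripts were spread more widely, with Hbb-bs at 1520 CPM in responder 4, 1458 CPM in responder 5 and 1457 CPM in responder 6.

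Of the neutrophil genes that failed the filter on low counts, Fcnb, which encodes a ficolin of immature neutrophils, had 0 counts in all 4 non-responders and 54 and 35 counts in responders 5 and 6, and Cebpe, the transcription factor gene of specific granules, had 1 to 5 counts in non-responders and 28 and 42 counts in responders 5 and 6. Mast-cell genes were highest in another tumour, with Cma1, the mast-cell chymase gene, at 20.3 CPM and Tpsb2, a tryptase gene, at 13.7 CPM in responder 4.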
